A study of Mus musculus with 20 samples.

Results

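The transcripts described here encode 5 proteins of paraspeckles: Sfpq, Nono, Pspc1, Matr3 and Rbm14. They were chosen by name and make up 5 of the 23284 genes in the files, and all 5 were among the 13710 genes that passed the filter on low counts. RNA bound to tagged Tet proteins was measured in mouse embryonic stem cells (ESCs) by RNA immunoprecipitation and sequencing (RIP-Seq), in 20 libraries. Each IP library, made with an anti-Flag antibody, had an input library of the same line and replicate number. The lines carried a CRISPR knock-in tag at the C-terminus of an endogenous Tet gene: Tet1 (Tet1-KI, 2 IP and input pairs), Tet2 (4 pairs) and Tet2 without its RNA-binding domain, called Tet2dRBD (4 pairs). All lines held the tag and were grown in serum on gelatin, and every IP used the same antibody, and control IPs were not analysed here. Tagged lines were derived from single cells, and nothing in the sources used here says that the replicates of a line came from separate clones. The p-values therefore measure the spread between these libraries, which may be technical.

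Paraspeckles are nuclear bodies built on the long noncoding RNA Neat1. SFPQ, NONO and PSPC1 form one family of RNA- and DNA-binding proteins, named for their Drosophila behaviour and human splicing roles (DBHS), and pair with each other as dimers. SFPQ and NONO also take part in transcription, splicing and DNA repair, RBM14 is a coactivator that helps paraspeckles form, and MATR3 is a nuclear matrix protein with RNA-binding domains.

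The total of expected counts per library lay between 21078995 and 37576638. The ESC markers Pou5f1, Nanog, Sox2, Esrrb, Zfp42 and Tdgf1 summed to 3698 to 5777 TPM, the length-scaled share of transcripts, over the 20 libraries. The 5 fibroblast markers summed to 18.5 to 178 TPM. Col3a1 was under 1 TPM everywhere, whereas Acta2 reached 115, Thy1 35.8, Col1a1 17.8 and Col1a2 9.24 TPM. The 6 markers of differentiated lineages summed to 4.39 to 105 TPM. T and Pax6 were under 1 TPM everywhere, whereas Gata4 reached 48.1, Gata6 26.95, Sox17 23.5 and Foxa2 6.21 TPM. In the inputs the sum of these 6 was 22.0 to 22.2 TPM in Tet1, 5.25 to 72.5 in Tet2 and 32.1 to 94.3 in Tet2dRBD. The replicates did not spread evenly. Replicates 3 and 4 of Tet2 and of Tet2dRBD lay close together, whereas replicates 1 and 2 stood apart from them and from each other. In the names of the deposited libraries, replicate 1 carries the set number 1702, replicate 2 the number 1705, and replicates 3 and 4 share 1804 with all Tet1 libraries. What that number stands for is not given in the sources used here. In bulk libraries, fewer cells of a type and less RNA per cell cannot be told apart. Results that rest on replicate 2 are given below with and without it.

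In the mm9 genome (NCBI build 37, GENCODE annotation), Sfpq lies on chr4:126698568-126714257 (+ strand), Nono on chrX:98624657-98643930 (+ strand), Pspc1 on chr14:57341278-57397153 (- strand) and Rbm14 on chr19:4784299-4811634 (- strand). No position or sequence is given for Matr3. The Rbm14 gene model of this annotation also spans transcripts of the neighbouring gene Rbm4. The authors assigned reads to RefSeq transcripts instead, with 1 transcript of 2809 bases for Rbm14. That is the length of the annotated coding transcript at chr19:4800925-4811634. Whether reads of bases shared with Rbm4 went to the right gene was not tested. The study reported a UC-rich motif at the centres of its modified RNA sites, which lay mostly in introns. Introns were not searched here, and that motif was not tested. Shown instead, for 4 members, is the longest unbroken run of C and T on the coding strand. It is in capitals, within 30 bases of coding sequence from the reference. The Sfpq window lies in exon 3 (chr4:126700615-126700644), that of Nono in exon 4 (chrX:98634901-98634930), that of Pspc1 in exon 2 (chr14:57390711-57390740, - strand) and that of Rbm14 in exon 2 (chr19:4803329-4803358, - strand).
Sfpq: tgttcgaaaTCTCTCTCCTTatgtttccaa
Nono: ttgtgggcaaTCTTCCCCCTgatatcactg
Pspc1: cggtcaagaaCCTTTCTCCggttgtttcca
Rbm14: gggctcagggCTCCTCCCTTgcttcctatg
These runs were of ordinary length for coding sequence, which does not bear on the study's motif or on introns. Among 22590 coding genes the median longest run was 10 bases, and 46.8% of genes had a run at least as long as the 11 bases of Sfpq. The share was 62.6% for the 10 bases of Nono and Rbm14, and 76.9% for the 9 bases of Pspc1. The C and T content of the coding sequence was 45.4% for Sfpq, 42.8% for Nono, 41.9% for Pspc1 and 54.9% for Rbm14, against a median of 48.3% over genes.

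In the 10 inputs the members fell into a clear order. Nono was highest, at 218 ± 49.2 TPM (SD, n = 10), followed by Sfpq at 117 ± 25.3, Rbm14 at 63.5 ± 29.7, Pspc1 at 19.8 ± 11.4 and Matr3 at 12.5 ± 6.87. TPM is scaled by transcript length, so that these levels can be set against each other. Nono was above Sfpq in 10 of 10 inputs, Sfpq above Rbm14 in 9 of 10, and Rbm14 above Pspc1 in 10 of 10. Pspc1 and Matr3, the lowest neighbours, changed places in 3 of 10 inputs, and their mean log2 difference of 0.65 was smaller than its SD of 0.996. The lowest count of any member in any library was 559, for Pspc1 (95% exact Poisson interval 514 to 607), so counting error was small beside the spread between libraries. This interval covers counting error only.

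**Figure D1:**
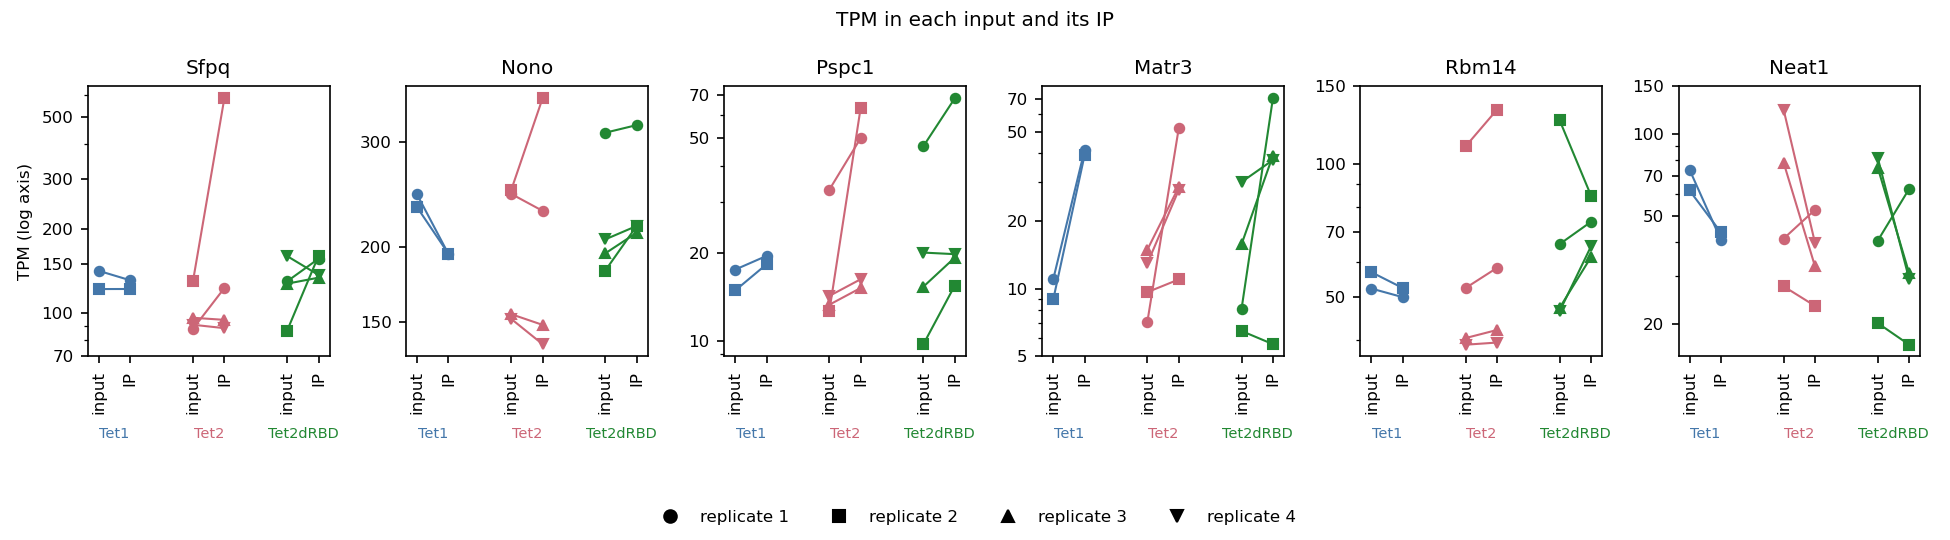
TPM (log axis) of the 5 members and of Neat1 in each input and in the IP of the same replicate number, joined by a line; colours mark the line and symbols the replicate. The Sfpq level of 586 TPM in replicate 2 of the Tet2 IP stands above all other Sfpq values, and Matr3 rises from input to IP in 9 of 10 pairs.

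IP against input was tested with edgeR's quasi-likelihood test across all 13710 genes. None of the 5 members passed an adjusted p of 0.05 in any line. Over all genes, 5.9% were called in Tet1, 33.1% in Tet2 and 19.5% in Tet2dRBD. At an unadjusted p under 0.05 there were 2 members in Tet1 (Matr3 and Nono), 1 in Tet2 (Nono) and 0 in Tet2dRBD, against 3224, 6168 and 4858 of all genes.

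Sfpq, the largest of the DBHS proteins, had near equal levels in IP and input in most pairs. In Tet1 it was at 141 and 122 TPM in the inputs and at 131 and 122 TPM in the IPs. In the Tet2 inputs, replicates 1 to 4 held 87.9, 131, 96.2 and 90.8 TPM, and the IPs 123, 586, 94.5 and 88.3 TPM. Only replicate 2 of the Tet2 IP was far above its input, and the ranges of IP and input overlapped. In the Tet2dRBD inputs the values were 130, 86.6, 127 and 160 TPM, and in the IPs 156, 160, 134 and 137 TPM. There too the largest ratio belonged to replicate 2. The log2 ratio of IP to input, on TPM + 1, averaged 0.64 ± 1.04 (SD, n = 4) in Tet2 and 0.14 ± 0.29 over the 3 pairs other than replicate 2. In Tet2dRBD it was 0.25 ± 0.47 (n = 4), and 0.038 ± 0.25 without replicate 2. The fitted log2 difference, which is scaled by the trimmed mean of M-values (TMM), was 0.21 ± 0.30 (SE) in Tet2 (adjusted p = 0.616). It became -0.22 without replicate number 2 of both lines (adjusted p = 0.0588). In Tet2dRBD the fitted value moved from -0.11 ± 0.29 (adjusted p = 0.816) to -0.35 ± 0.081, which passed the test (adjusted p = 0.0127), where 30.8% of all genes did.

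Nono, the most abundant member, had log2 ratios between -0.33 and 0.25 in every pair but replicate 2 of Tet2, at 0.51. In Tet1 it fell from 245 and 233 TPM in the inputs to 195 TPM in both IPs, and the ranges did not overlap. The Tet2 inputs held 246, 249, 154 and 152 TPM and the IPs 230, 356, 148 and 138 TPM, with only replicate 2 higher in IP. In Tet2dRBD the inputs held 311, 183, 195 and 206 TPM and the IPs 321, 217, 212 and 217 TPM, each a little above its own input. The fitted log2 differences were -0.44 ± 0.16 in Tet1 (adjusted p = 0.128), -0.26 ± 0.11 in Tet2 (adjusted p = 0.0982) and -0.16 ± 0.11 in Tet2dRBD (adjusted p = 0.353). Without replicate number 2 of Tet2 and Tet2dRBD, the edgeR test called Nono lower in all 3 lines, at -0.45, -0.36 and -0.23 (adjusted p = 0.0133, 0.00729 and 0.0471), where 20.9%, 38.3% and 30.8% of all genes were called. The lines share 1 estimate of the spread, and the Tet1 libraries were the same in both fits. The Tet1 call thus came with a smaller shared spread and not with a changed Tet1 value, so the 3 calls are not independent. In Tet2dRBD the direction depends on the scale. The mean ratio of TPM was 0.12, and -0.056 once each pair was centred on the median ratio of the 11784 genes with a mean input of at least 1 TPM. That median lay between 0.013 and 0.38 in the 10 pairs, so a TPM ratio slightly above 0 was the ordinary value.

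Pspc1, the DBHS gene with the lowest level here, was higher in IP than in input in 9 of 10 pairs. In Tet1 the inputs held 17.6 and 14.9 TPM and the IPs 19.6 and 18.3 TPM. In Tet2 the inputs held 33.1, 12.6, 13.3 and 14.3 TPM and the IPs 49.8, 63.4, 15.2 and 16.3 TPM. Replicate 2 again gave the largest ratio, 2.24 on the log2 scale, against 0.18 in replicates 3 and 4. In Tet2dRBD the inputs held 46.8, 9.73, 15.4 and 20.1 TPM and the IPs 68.3, 15.5, 19.3 and 19.9 TPM. The fitted values were 0.080 ± 0.38 in Tet1 (adjusted p = 0.929), 0.49 ± 0.27 in Tet2 (adjusted p = 0.185) and 0.11 ± 0.27 in Tet2dRBD (adjusted p = 0.803). Without replicate number 2 the Tet2 value was 0.070. On log2(TPM + 1), limma called Pspc1 in Tet2, at 0.79 (adjusted p = 0.0389), where 43.1% of all genes were called. Across the 10 pairs, the ratios of Sfpq and Pspc1 correlated with r = 0.98 and those of Sfpq and Nono with r = 0.81, a description that shares the replicate 2 libraries.

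**Figure D2:**
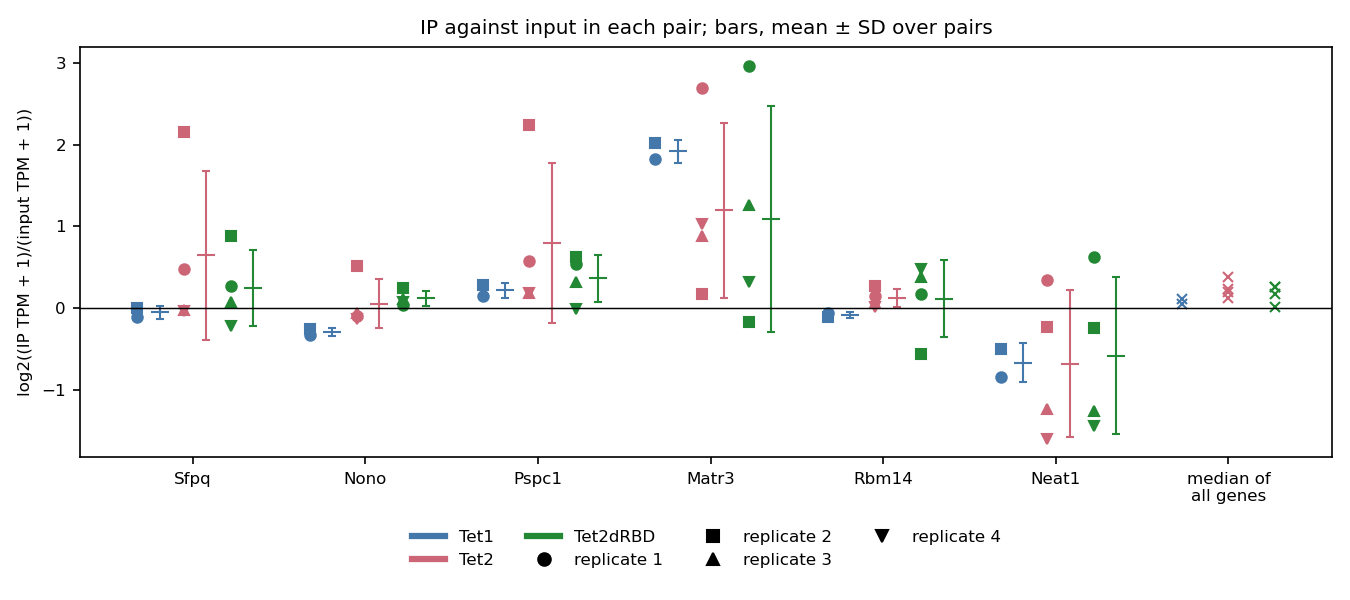
Log2 ratio of IP to input, on TPM + 1, in each pair, by gene and line; bars are the mean ± SD over the pairs, and crosses at the right are the median ratio of 11784 genes in each pair. Replicate 2 (squares) is the highest of Tet2 for Sfpq, Nono and Pspc1 and the lowest for Matr3, whose other ratios reach 2.97.

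Matr3 had the highest ratios of the 5. In Tet1 it rose from 11.04 and 8.97 TPM in the inputs to 41.6 and 39.5 TPM in the IPs, and the ranges lay far apart. In Tet2 the inputs held 7.14, 9.65, 14.9 and 12.97 TPM and the IPs 51.9, 10.99, 28.4 and 27.5 TPM. Replicate 1 gave a log2 ratio of 2.70 and replicate 2 only 0.17. In Tet2dRBD the inputs held 8.12, 6.48, 15.8 and 29.8 TPM and the IPs 70.4, 5.66, 39.1 and 37.4 TPM, with ratios from -0.17 in replicate 2 to 2.97 in replicate 1. Among genes with a mean input of at least 1 TPM, Matr3 stood at the 94.5th percentile or higher in 7 of 10 pairs. The exceptions were replicate 2 of Tet2 (37.1), replicate 2 of Tet2dRBD (32.6) and replicate 4 of Tet2dRBD (63.0). The fitted values were 1.88 ± 0.67 in Tet1 (adjusted p = 0.121), 0.93 ± 0.48 in Tet2 (adjusted p = 0.158) and 0.83 ± 0.49 in Tet2dRBD (adjusted p = 0.249). Without replicate number 2 of Tet2 and Tet2dRBD they were 1.87, 1.35 and 1.24, and Tet1 alone passed (adjusted p = 0.0486, 0.0505 and 0.0802), where 20.9% of all genes did in Tet1. The Tet1 libraries were the same in both fits, so this call too came with the smaller shared spread.

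Rbm14 stayed near its input. In Tet1 the inputs held 52.2 and 56.9 TPM and the IPs 49.9 and 52.4 TPM. In Tet2 the inputs held 52.3, 109, 40.3 and 39.0 TPM and the IPs 58.1, 133, 42.1 and 39.4 TPM. Replicate 2 was the highest in both library types, with a log2 ratio of 0.27, or -0.11 once centred on the median ratio of that pair. In Tet2dRBD the inputs held 65.8, 125, 47.2 and 46.4 TPM and the IPs 73.9, 84.7, 61.5 and 65.1 TPM, and replicate 2 alone fell below its input. The fitted values were -0.24 ± 0.18 in Tet1, -0.19 ± 0.13 in Tet2 and -0.16 ± 0.13 in Tet2dRBD (adjusted p = 0.473, 0.266 and 0.400).

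**Figure D3:**
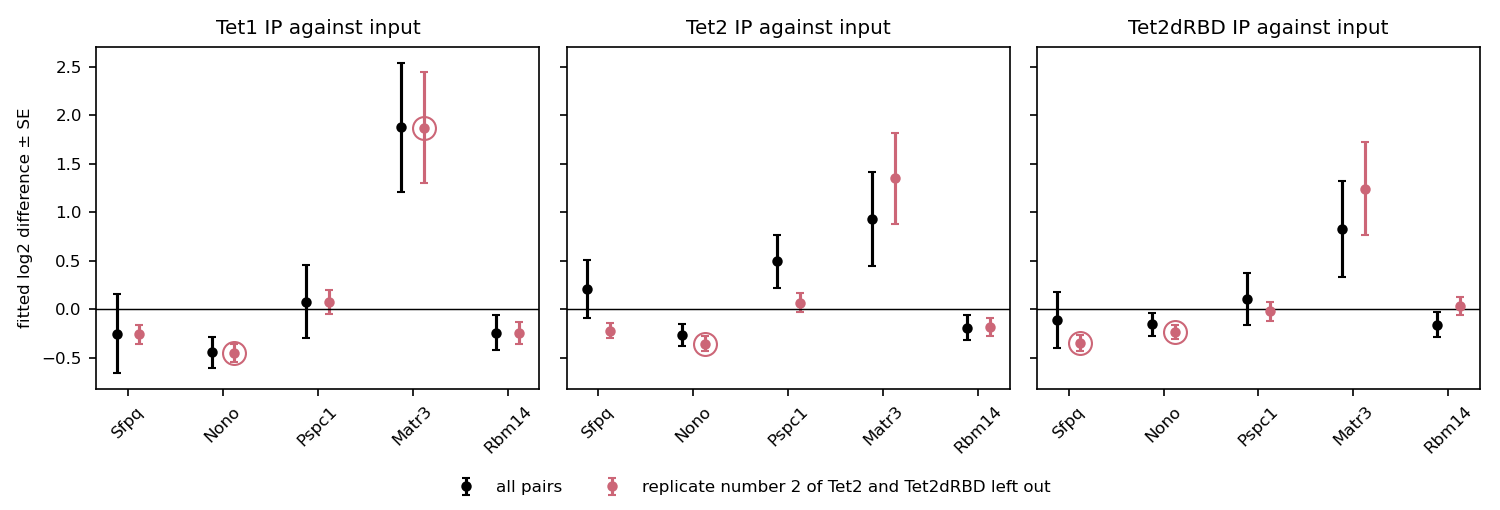
Fitted log2 difference of IP against input ± SE for the 5 members in each line, with all pairs (black) and with replicate number 2 of Tet2 and Tet2dRBD left out (red); rings mark an adjusted p below 0.05. No member is ringed with all pairs, and Nono is ringed in all 3 lines without replicate number 2.

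The study took a transcript as bound where the IP held a higher TPM than the input. By that rule applied to every replicate, 2 of 5 members were above input in Tet1 (Pspc1 and Matr3), where 50.9% of the 13710 genes tested were. In Tet2 there were 3 of 5 (Pspc1, Matr3 and Rbm14), against 46.5% of genes, and in Tet2dRBD 1 of 5 (Nono), against 31.8%. With an IP at least 1.5 times the input in every replicate, Matr3 in Tet1 was the only member left, and 9.13% of genes passed there. The Tet2dRBD count became 3 without replicate 2 or 4 of that line, and the share of all genes is not given for that setting. Leaving out a pair loosens the rule for every gene, so this rise is not a result about the members.

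The question of whether binding depends on the RNA-binding domain was put to the IP-to-input change in Tet2 less that in Tet2dRBD. None of the members passed this test, which called 3 of 13710 genes (0.0219%). The fitted difference, Tet2 minus Tet2dRBD, was 0.32 for Sfpq (95% interval -0.60 to 1.24), 0.39 for Pspc1 (-0.45 to 1.23), -0.11 for Nono (-0.46 to 0.25), 0.10 for Matr3 (-1.41 to 1.62) and -0.033 for Rbm14 (-0.43 to 0.37). The intervals for Sfpq, Pspc1 and Matr3 leave room for a difference of 2-fold or more. The difference for Sfpq turned to -0.12 and that for Pspc1 to -0.044 without replicate 2 of Tet2.

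Tet1 and Tet2 were compared in the same way. None of the members passed, and 0 of 13710 genes were called, with 517 at an unadjusted p under 0.05. DESeq2 called 13 genes, none of them a member. Tet1 has only replicates of the 1804 set. Against replicates 3 and 4 of Tet2, which carry the same number, Matr3 was higher by 1.11 ± 0.093 in Tet1 (edgeR, adjusted p = 6.6e-07). There 17.2% of genes were called, and the other 4 members did not pass. That fit has 2 residual degrees of freedom, and its spread is that between close replicates only. Over all pairs the Matr3 difference was 0.94 ± 0.81 (edgeR, adjusted p = 0.940). The Matr3 ratios were 2.70, 0.17, 0.88 and 1.03 in replicates 1 to 4 of Tet2, and 1.82 and 2.02 in Tet1. Between the inputs of Tet2 and Tet2dRBD no member passed (0 of 13310 genes called, 340 at an unadjusted p under 0.05; 16 by DESeq2). The fitted input differences, Tet2 minus Tet2dRBD, ran from -0.41 for Matr3 to -0.16 for Nono.

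Neat1, the RNA on which paraspeckles are built, was lower in IP than in input in 8 of 10 pairs. The inputs of Tet1 held 74.0 and 62.0 TPM and the IPs 40.8 and 43.5 TPM. In Tet2 the inputs held 41.2, 27.5, 78.4 and 123 TPM and the IPs 52.6, 23.3, 32.6 and 39.8 TPM. In Tet2dRBD the inputs held 40.5, 20.2, 75.2 and 81.6 TPM and the IPs 62.8, 16.8, 30.8 and 29.3 TPM. Replicate 1 of Tet2 and of Tet2dRBD were the only pairs above input. The fitted log2 difference was -1.02 ± 0.35 in Tet2, which passed (edgeR, adjusted p = 0.0440). It did not pass in Tet1, at -0.83 (adjusted p = 0.329), or in Tet2dRBD, at -0.88 (adjusted p = 0.0998). Some alternatives did call Neat1 lower in these lines. In Tet2dRBD it passed by DESeq2 (adjusted p = 0.0446), and in edgeR without replicate 1 of that line (adjusted p = 0.0452). With Tet1 alone, on 1 residual degree of freedom, it passed in Tet1 at -0.80, where 6985 of 12691 genes did. The Tet2 call was lost without replicate 2, 3 or 4 of Tet2 (adjusted p = 0.0676, 0.141 and 0.167). It was also lost by limma on log2(TPM + 1) and on log2(TPM + 0.1) (adjusted p = 0.134 and 0.131). In edgeR it was lost with replicates 3 and 4 merged, with no replicate block and without replicate number 2 of both lines (adjusted p = 0.124, 0.203 and 0.0623). The call held by DESeq2 (adjusted p = 0.00793), and in edgeR with no filter, with Tet2 alone and without replicate 1 (adjusted p = 0.0365, 0.0469 and 0.0310). The study's methods describe RIP from cytoplasmic extract, while the labels name polyA RNA for IP and input alike and do not settle which fraction the input RNA came from. The part of this in the result was not tested. For 3 other nuclear RNAs the mean log2 ratio ± SD, on TPM + 1, follows for Tet1 (n = 2), Tet2 (n = 4) and Tet2dRBD (n = 4). It was 0.35 ± 0.29, -0.097 ± 0.38 and -0.12 ± 0.63 for Malat1, and 0.29 ± 0.23, 0.19 ± 0.16 and 0.23 ± 0.32 for Kcnq1ot1. For Meg3 it was -0.45 ± 0.22, 0.13 ± 0.71 and -0.31 ± 0.35. Kcnq1ot1 was at only 0.16 to 0.54 TPM in the inputs, where adding 1 TPM draws the log2 ratio towards 0. Its mean TPM went from 0.475 in input to 0.805 in IP in Tet1, from 0.24 to 0.42 in Tet2 and from 0.315 to 0.56 in Tet2dRBD.

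Among the Tet mRNAs, Tet2 was higher in the Tet2 IP than in input by 0.56 ± 0.19 (edgeR, adjusted p = 0.0428) and Tet1 in the Tet2dRBD IP by 0.76 ± 0.20 (adjusted p = 0.0242). The other fitted values of Tet1, Tet2 and Tet3 did not pass. The first call was lost without any 1 of the 4 Tet2 replicates (adjusted p = 0.0693 to 0.128), and the second without replicate 1, 2 or 3 of Tet2dRBD (adjusted p = 0.0660, 0.0582 and 0.0645).

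The files list 2 transcripts each for Sfpq and Nono and 1 each for the other members, and RSEM gives a length weighted by the transcripts' shares. For Sfpq this length was shorter in IP than in input in 10 of 10 pairs, with a mean difference, IP minus input, of -177 ± 95.9 bases (SD, n = 10). In Tet1 it went from 3356 to 3274 and from 3365 to 3226 bases. In Tet2 the differences were -363, -207, -125 and -162 bases, and in Tet2dRBD -302, -220, -102 and -72.4 bases. This pattern was chosen after the values were seen, so no p-value is given for it. Of 1292 genes with over 1 transcript, a mean input of at least 5 TPM and a length range above 20 bases, 24 (1.86%) were shorter in all 10 pairs and 55 (4.26%) were longer. The coding Sfpq transcript of the annotation is 3465 bases long. A shorter noncoding one of 925 bases starts within the span of the coding transcript, which ends at 126708480. This shorter one runs on to the end of the gene at position 126714257. Whether it is the second transcript of the files is not given in the sources used here. Through the length, the TPM ratio of Sfpq gained 0.031 to 0.17 on the log2 scale. For Nono the length was 2467 to 2468 bases in every library.

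**Figure D4:**
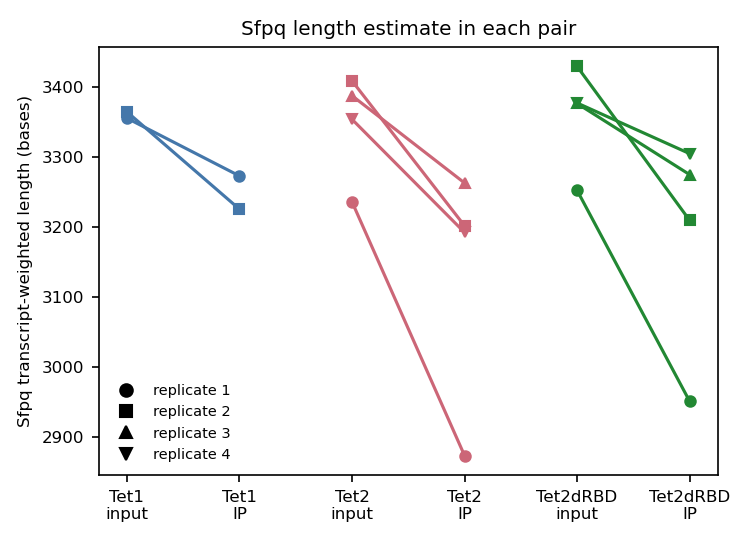
Transcript-weighted length of Sfpq in bases (the axis does not start at 0) in each input and in the IP of the same replicate number. The length is lower in the IP in all 10 pairs, with differences from -363 to -72.4 bases.

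The genes whose log2 ratios over the 10 pairs were most like those of a member, among 8467 genes with a mean input of at least 5 TPM, were Brd9 and Mllt4 for Sfpq (r = 0.994 and 0.993), Fkbp5 and Wdr37 for Nono (0.986 and 0.982), Trmt6 and Wdr70 for Pspc1 (0.993 and 0.986), Pnn and Psip1 for Matr3 (0.989 and 0.988) and Naa40 and Pex14 for Rbm14 (0.990 and 0.983). Without replicate 2 of Tet2 and Tet2dRBD (8 pairs) these were 0.909 to 0.993.

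Other paraspeckle genes were taken from a list of 34, of which 33 were tested (Zfp24 was not). In Tet1, 0 were higher and 4 lower. In Tet2, 2 were higher (Ahdc1 and Akap8l) and 16 lower, and in Tet2dRBD 0 were higher and 14 lower. Called in either direction were 12.1%, 54.5% and 42.4% of the list, against 5.9%, 33.1% and 19.5% of all genes. The median fitted log2 difference of the list was -0.29, -0.37 and -0.38 in the 3 lines, against -0.036, 0.0032 and -0.015 over all genes. Rbm3, a cold-induced RNA-binding protein, was the lowest in Tet2 at -1.42 ± 0.12 (adjusted p = 8.5e-05), from 358 ± 162 TPM in input to 170 ± 88.6 in IP (SD, n = 4). Hnrnpf, a splicing regulator, followed at -1.13 ± 0.093 (adjusted p = 7.8e-05), from 586 ± 167 to 341 ± 127 TPM. Both also fell in Tet1, at -1.002 and -0.99 (adjusted p = 0.0202 and 0.0186), and in Tet2dRBD, at -1.27 and -1.05 (adjusted p = 0.00033 and 0.00026). At the other end stood Smarca4, a chromatin remodelling ATPase, at 1.07 ± 0.51 (adjusted p = 0.130) and Akap8l at 0.82 ± 0.22 (adjusted p = 0.0174). The size of the Smarca4 value rests on 1 library: its IP level in Tet2 was 212 ± 308 TPM (SD, n = 4). Without replicate 2 of Tet2 its fitted difference was 0.39 (edgeR, adjusted p = 0.360), below the 0.59 of Akap8l. Without replicate number 2 of Tet2 and Tet2dRBD it was 0.39 ± 0.11 and passed (edgeR, adjusted p = 0.0231), where 38.3% of all genes did. On log2(TPM + 1) limma also called it in Tet2, at 1.47 (adjusted p = 0.0320), where 43.1% of all genes were called. The list's counts depend on the scale and the replicates. On log2(TPM + 1), where the median of all genes was 0.079, 0.23 and 0.19, limma called 1 higher and 2 lower in Tet1, 7 and 3 in Tet2 and 5 and 3 in Tet2dRBD. The split over all genes moved likewise, from 2007 higher and 2533 lower in Tet2 to 4801 and 1113. Leaving out 1 Tet1 replicate left 0 calls in Tet1. Without replicate 1 or 3 of Tet2dRBD, 9 and 4 were lower in that line. With replicates 3 and 4 merged, 3 were lower in Tet1, 1 was higher and 11 lower in Tet2, and 4 were lower in Tet2dRBD. Without replicate 2 of Tet2, 0 were higher and 17 lower in Tet2. The call of Ahdc1 was lost without any 1 of the 4 Tet2 replicates (adjusted p = 0.0527 to 0.152), and that of Akap8l without replicate 1 or 2 (adjusted p = 0.0521 and 0.0582). With no replicate block, 1 gene was lower in Tet2 (Hnrnpf) and 0 in the other lines. With all pairs, no gene of the list passed a difference between lines. Against replicates 3 and 4 of Tet2 alone, 5 of the 33 genes of the list were higher in Tet1 and 0 lower, Neat1 among them at 0.86 (edgeR, adjusted p = 1.15e-05). Of all 13181 genes in that fit, 17.2% were called, 1630 higher and 632 lower. Calls were thus no more frequent in the list than over all genes. That fit has 2 residual degrees of freedom, and over all pairs the Neat1 difference was 0.18 ± 0.59 (edgeR, adjusted p = 0.975).

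**Figure D5:**
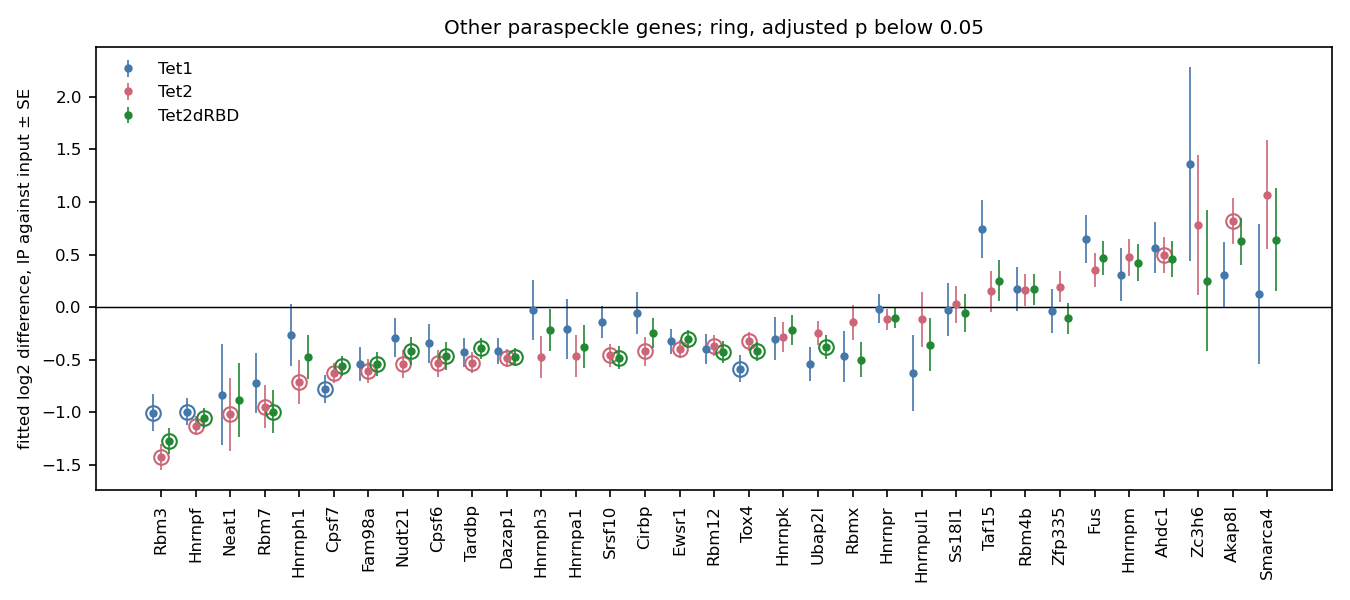
Fitted log2 difference of IP against input ± SE for 33 other paraspeckle genes, ordered by the Tet2 value; rings mark an adjusted p below 0.05. The left side, from Rbm3 to Tox4, holds most of the called genes, all lower in IP.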

How the data were processed

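The authors removed rRNA and tRNA reads with Bowtie2, trimmed with Trimmomatic, and estimated abundances with RSEM on mm9 and RefSeq transcripts (versions not given in the sources used here). Per gene they deposited expected counts, TPM with 1 added, FPKM (in no test) and transcript-weighted lengths. Here 1 was subtracted to give TPM, and expected counts were rounded. Genes with at least 1 CPM in 2 libraries were tested with edgeR 4.0.16 (quasi-likelihood, TMM) over the 20 libraries, in a model with a term for every pair and a separate IP term in each line, and with Benjamini-Hochberg adjustment over all genes. Inputs were compared by line. DESeq2 1.42.0 and limma 3.58.1 gave alternatives. IP and input were paired by label number. In Tet2 and Tet2dRBD same-numbered IP and input deviated together (r = 0.60 to 0.88), but IP 4 correlated more with input 3 (0.81 and 0.75) than with input 4 (0.80 and 0.60), so numbers 3 and 4 cannot be told apart. In Tet1, with 2 replicates, this check says nothing. Scripts were tested on simulated data. Named genes were the 5 members, Neat1, the Tet genes, the 2 genes most like each member, and the 2 highest and 2 lowest of the other paraspeckle genes in Tet2, with any that passed a difference between lines. Members and lists were chosen with earlier results of these data known. Sequences came from NCBIM37 and GENCODE vM1.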

Additional observations from a re-analysis of the deposited data

Results flagged for a closer look

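Dixon's criterion for a sample far from the others was checked in 36 groups of 4 for the members and Neat1, and 5 were past its 95% value. For independent samples chance gives about 1 in 20. Here the groups share libraries and replicates 3 and 4 lay close together, so the 5 cannot be set against that rate. Sfpq reached 586.5 TPM in replicate 2 of the Tet2 IP, against 88.3 to 123 TPM in the other 3. The log2 ratio of Nono in Tet2 was highest in the same pair, at 0.51. The median ratio over genes in that pair was 0.38, and the centred Nono ratio was 0.13. Nono was highest in replicate 1 of the Tet2dRBD IP, at 320.6 TPM. Pspc1 was highest in replicate 1 of the Tet2 input, at 33.09 TPM, and in replicate 1 of the Tet2dRBD IP, at 68.33 TPM.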

How the results depend on the processing

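No fitted member value passed the test with all pairs, and 355 of the values recomputed under the alternatives kept their direction and side of the threshold, 13 passed and 37 changed sign. Without replicate number 2 of Tet2 and Tet2dRBD, 2 members were called in Tet1, 1 in Tet2 and 2 in Tet2dRBD, where 20.9%, 38.3% and 30.8% of all genes were. Values that changed sign then were Sfpq in Tet2 at -0.22, Pspc1 in Tet2dRBD at -0.022, Rbm14 in Tet2dRBD at 0.033 and Pspc1 in Tet1 minus Tet2 at 0.0060. With Tet1 alone, on 1 residual degree of freedom, 4 were called, where 6985 of 12691 genes were called. The fit of Tet1 and replicates 3 and 4 of Tet2, on 2 residual degrees of freedom, called 1 (Matr3) and turned Sfpq to 0.084 and Pspc1 to 0.13. On log2(TPM + 1) limma called 1 in Tet2 (Pspc1; also 1 with TPM + 0.1), and turned Nono to 0.054 (0.054 with TPM + 0.1) and Rbm14 to 0.12 (0.13 with TPM + 0.1) in Tet2, Sfpq to 0.25, Nono to 0.12 and Rbm14 to 0.11 (0.12 with TPM + 0.1) in Tet2dRBD, and Rbm14 in Tet2 minus Tet2dRBD to 0.0096 (0.0083 with TPM + 0.1). That last value was 0.067 with no replicate block and 0.044 with replicates 3 and 4 merged.

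Above input in every replicate were 1 member in Tet1 and 0 in Tet2 and Tet2dRBD at 1.5 times the input, 0 in both after centring, and 5 in both by means with no replicate block. Leaving out 1 pair, which loosens the rule for every gene, gave 1 to 3 in Tet2dRBD. The share of all genes is given only for 1.5 times the input in Tet1 (9.13%). The median log2 ratio over genes lay between 0.013 and 0.38 in the pairs, so the other counts cannot be read as enrichment of the members. The mean ratio of Rbm14 in Tet2 became -0.11 after centring and -0.19 on TMM-scaled CPM, and that of Nono in Tet2dRBD -0.056 and -0.16.

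Leaving out 1 replicate called 0 to 1 members in Tet2 (Nono, without replicate 2, where 3623 of 13692 genes were called). Fitted values that changed sign then ranged from -0.22 to 0.40 for Sfpq in Tet2. In Tet2dRBD they ranged from -0.34 to 0.029 for Sfpq, -0.016 to 0.23 for Pspc1 and -0.29 to 0.041 for Rbm14. In Tet2 minus Tet2dRBD they ranged from -0.12 to 0.58 for Sfpq, -0.044 to 0.57 for Pspc1, -0.39 to 0.68 for Matr3 and -0.20 to 0.096 for Rbm14. In Tet1 minus Tet2 they ranged from -0.60 to 0.0059 for Pspc1 and -0.14 to 0.036 for Rbm14, and between inputs from -0.33 to 0.069 for Nono, -0.82 to 0.35 for Pspc1, -0.66 to 0.14 for Matr3 and -0.65 to 0.15 for Rbm14. The cause of these changes was not tested.

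Counts over all genes moved more. Without the replicate block 0, 375 and 46 genes were called in Tet1, Tet2 and Tet2dRBD, against 809, 4540 and 2674. Merging replicates 3 and 4 gave 318 and 1060 in Tet1 and Tet2dRBD, DESeq2 gave 1578 in Tet1, 28 between Tet2 and Tet2dRBD, 13 between Tet1 and Tet2 and 16 between the inputs, and leaving out replicate number 2 gave 2855 in Tet1, 4201 in Tet2dRBD and 17 between Tet2 and Tet2dRBD. Each line alone gave 6985 in Tet1 and 748 in Tet2dRBD. Leaving out 1 replicate gave 0 in Tet1, as low as 2690 in Tet2 (without replicate 1), 1235 and 795 in Tet2dRBD (without replicates 1 and 3), and 0 to 14 between Tet2 and Tet2dRBD. With the replicate block matched between Tet2 and Tet2dRBD 0 genes differed, and with it as a block on the inputs 5 did, no member among them. Same-numbered inputs of these lines had r = 0.71 to 0.90, and other-numbered ones reached 0.84.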
